A study of Mus musculus with 6 samples.

Results

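Hlf, Meis1, Fli1, Erg, Tcf15, Ndn, Mecom and Prdm16 are regulators of haematopoietic stem cell identity outside the Hox clusters. They were chosen by name for that role, 8 of 38926 genes in the deposited table, and all 8 were among the 11436 genes that reached the mean of 1 FPKM needed to enter the test. FPKM is the number of fragments scaled to gene length and to library size. Levels can thus be set side by side between genes as far as the lengths used hold.

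RNA was sequenced from sorted LSK cells (no lineage markers, Sca1+ cKit+), which hold the stem cells and multipotent progenitors of the marrow. Both groups were wild-type C57BL/6 mice aged 8 to 12 weeks, which received daily injections for 3 days of either DMSO, the vehicle, or haloperidol, a dopamine receptor blocker used against psychosis, and cells of the femur and tibia stayed in drug or vehicle through the sort. Each treatment gave 3 libraries. The labels give no dose and do not say that replicates were separate animals. The p-values therefore reflect only how far these samples spread, possibly for technical reasons, and any sort or sequencing batch shared by a group cannot be told apart from haloperidol.

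In stem cells, identity rests on transcription factors that bind the same enhancers in combinations and keep genes of self-renewal on while the genes of single lineages stay low. Most are lost as cells commit, and several are also used by endothelium or megakaryocytes, which share ancestry with blood stem cells. In a bulk sample of LSK cells, fewer cells that express such a gene and less of its RNA per cell cannot be told apart.

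Depth was even, with 8523556 to 8969032 reads assigned to genes per library. For counting error alone, a gene with 0 reads at such depth could still lie at 0.334 to 0.352 RPM. Both genes of the gate were present in every library and did not pass the test: Kit averaged 87.8 ± 7.38 and 81.0 ± 9.78 FPKM without and with haloperidol (SD, n = 3 each), and the Sca1 gene Ly6a 136 ± 10.2 and 138 ± 10.5 FPKM. DMSO and haloperidol libraries lay on opposite sides of the first principal component, which carried 51.6% of the variance.

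Of the 8 regulators, 6 fell with haloperidol, 0 rose and 2 did not pass the test (limma, adjusted p below 0.05 over all genes tested). Over all 11436 genes 24.5% passed, 13.0% lower and 11.5% higher. That split was 1320 higher and 1487 lower as reported, 1551 and 1327 with a common upper quartile, and 1114 and 1565 with a common sum, while 6 regulators fell under each of these scalings. The libraries of both groups did not overlap for those same 6 genes, all lower with haloperidol, where 43.1% of all genes did not overlap and 22.1% were lower without overlap. The median log2 fold change was -0.49 over the 8 regulators and 0.002 over all tested genes. None was higher at an unadjusted p below 0.05 either, nor with limma's voom test on recovered reads. The falls ran from Hlf, left at 47.4% of its DMSO mean, to Erg at 75.6%, while the PRDM genes Mecom and Prdm16 stood at 94.6% and 92.4%.

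**Figure D1:**
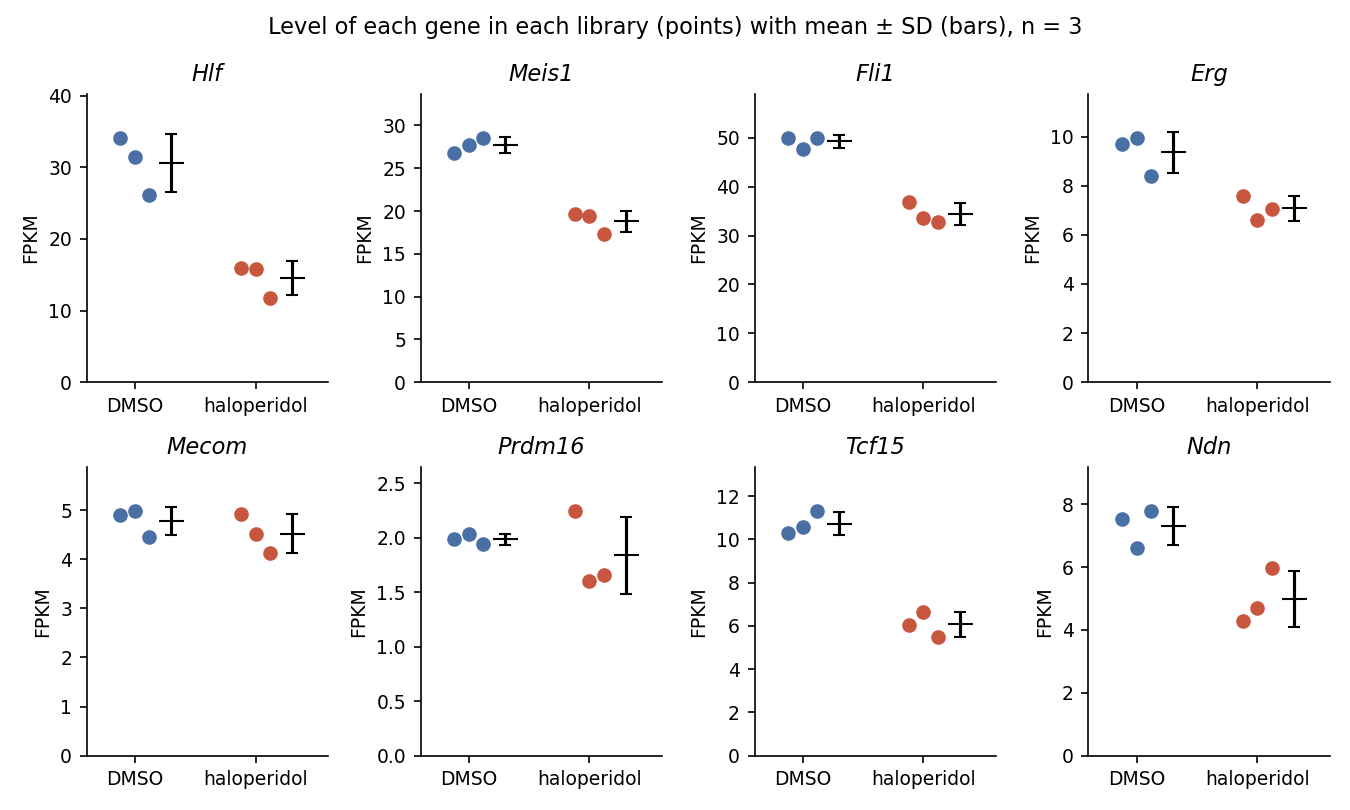
FPKM of the 8 regulators in each library (points; DMSO left, haloperidol right) with the mean ± SD of 3 libraries beside them, each panel starting at 0. For Hlf, Meis1, Fli1, Erg, Tcf15 and Ndn every haloperidol library lies below every DMSO library, while the groups overlap for Mecom and Prdm16.

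Hlf encodes hepatic leukaemia factor, a basic leucine zipper protein of the PAR family whose expression in blood is concentrated in stem cells and falls as they differentiate. It stood at 34.2, 31.4 and 26.2 FPKM in DMSO replicates 1, 2 and 3, and at 15.9, 15.8 and 11.8 FPKM in haloperidol replicates 1, 2 and 3. The highest haloperidol library thus lay well under the lowest DMSO library. The log2 fold change was -1.03 (SE 0.13, 95% interval -1.33 to -0.74, adjusted p = 0.00106), rank 83 of the falls over all tested genes. Between 1576 and 2036 reads lay behind each DMSO value and 700 to 939 behind each haloperidol value. Hlf was also the most variable of the fallen genes in DMSO, with a coefficient of variation of 13.3%, and had one of 16.3% in haloperidol.

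Meis1 encodes a TALE homeodomain protein that binds DNA together with PBX and HOX proteins and is needed to maintain adult stem cells. Its DMSO libraries held 26.8, 27.7 and 28.6 FPKM and its haloperidol libraries 19.6, 19.4 and 17.3 FPKM. The spread within DMSO was small, a coefficient of variation of 3.24%, and no haloperidol library came near it. The log2 fold change was -0.54 (SE 0.07, adjusted p = 8.96e-04). Meis1 had the most reads of the 8 genes, 1461 to 2443 per library. An antisense gene, Gm16140, shares 896 exonic bases with Meis1 in GENCODE M21, and the libraries keep no strand. Gm16140, looked at after its values were seen, had 18 to 25 reads in DMSO and 6 to 12 in haloperidol.

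The promoters of Hlf and Meis1, the pair on chromosome 11, are shown because both genes fell, beside those of Mecom and Prdm16, which did not pass. RefSeq (GRCm38.p6) held promoters for 6 of the 8 genes, in 9 windows counting alternative starts. Each line gives the 250 bases before the start, 5′ to 3′ on the gene's strand, which is the minus strand for all 4. The Hlf window is chr11:90390918-90391167, the Meis1 window chr11:19018970-19019219, the Mecom window, that of the upstream of its pair of starts, chr3:30509760-30510009, and the Prdm16 window chr4:154636874-154637123. Capitals mark matches on either strand to the motifs named next.
Hlf: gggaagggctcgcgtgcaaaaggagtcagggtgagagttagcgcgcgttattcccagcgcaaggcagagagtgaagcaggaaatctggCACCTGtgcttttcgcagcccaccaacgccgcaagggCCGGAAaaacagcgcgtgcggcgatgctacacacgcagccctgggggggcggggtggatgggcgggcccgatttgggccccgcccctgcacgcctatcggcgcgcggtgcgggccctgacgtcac
Meis1: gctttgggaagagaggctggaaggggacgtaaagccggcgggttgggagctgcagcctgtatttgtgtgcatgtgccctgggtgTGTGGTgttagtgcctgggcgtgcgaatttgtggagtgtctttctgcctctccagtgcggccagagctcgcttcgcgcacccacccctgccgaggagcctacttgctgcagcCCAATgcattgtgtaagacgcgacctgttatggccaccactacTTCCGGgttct
Mecom: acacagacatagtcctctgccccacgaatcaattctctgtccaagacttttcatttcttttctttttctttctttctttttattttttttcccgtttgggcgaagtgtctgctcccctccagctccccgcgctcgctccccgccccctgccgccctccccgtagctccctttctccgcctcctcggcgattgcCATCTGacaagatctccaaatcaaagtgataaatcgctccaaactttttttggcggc
Prdm16: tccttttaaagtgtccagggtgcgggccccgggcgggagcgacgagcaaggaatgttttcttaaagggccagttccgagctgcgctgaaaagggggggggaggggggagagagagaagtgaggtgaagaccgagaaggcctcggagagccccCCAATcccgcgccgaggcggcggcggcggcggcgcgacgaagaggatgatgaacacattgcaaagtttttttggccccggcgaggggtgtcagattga

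The motifs searched were CCGGAA (the ETS core, bound by the family of Fli1 and Erg), AGATAA (bound by Gata2 and its relatives), TGTGGT (bound by RUNX factors), CAGNTG (the E-box of E proteins), TGACAG (bound by MEIS proteins), TTANNTAA (bound by PAR bZIP proteins), CCAAT (bound by the factor NF-Y) and the core promoter motif TATAAA. Both strands were searched. No matches of different motifs overlap in these 4 windows. Hlf and Meis1 each hold 1 ETS core, which 12.0% of all 32851 promoter windows of this length hold, and the Meis1 one starts 11 bases before the transcription start. The windows of Mecom and Prdm16 hold none, and neither do the 3 windows of Erg or the 1 window of Ndn, which fell too. Fli1 and Tcf15, which also fell, had no window to search. Any link between the ETS core and the falls was not tested. Meis1 also holds a RUNX match (14.0% of all windows) and a CCAAT box (33.8%), Hlf and Mecom an E-box (44.8%), and Prdm16 a CCAAT box. GC content was 67.2% for Hlf, 59.6% for Meis1, 50.8% for Mecom and 62.4% for Prdm16, with a median of 52.4% over all windows. A match describes the letters and not a bound site.

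Fli1 and Erg are paralogous ETS factors that act together in stem cells, and both are also known in endothelium and megakaryocytes. Fli1 was the most abundant of the 8 per kilobase, at 50.1, 47.8 and 50.1 FPKM in the DMSO libraries and 37.0, 33.6 and 32.8 FPKM in the haloperidol libraries. All haloperidol libraries lay below all DMSO libraries, and the log2 fold change was -0.51 (SE 0.06, adjusted p = 7.80e-04). Its interval, -0.64 to -0.37, was the narrowest of the 8.

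Erg was at 9.71, 9.96 and 8.41 FPKM in DMSO and at 7.58, 6.59 and 7.06 FPKM in haloperidol. The groups did not overlap but came close, with DMSO replicate 3 just above haloperidol replicate 1. The log2 fold change was -0.36 (SE 0.09, adjusted p = 0.0189). That call ended without DMSO replicate 1 (adjusted p = 0.0598), DMSO replicate 2 (0.0725) or haloperidol replicate 2 (0.0614) and with no filter on low values (0.0504), and adjusted p ran from 0.0104 to 0.0725 over its 14 alternatives. Erg was much less abundant than Fli1 in every library, with FPKM ratios of 0.194, 0.209 and 0.168 in DMSO and 0.205, 0.196 and 0.215 in haloperidol. The log2 ratio moved by 0.15 (exact permutation test, two-sided, p = 0.2, adjusted over 3 ratios 0.3), where 3 against 3 allows no p below 0.1.

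Tcf15 encodes a basic helix-loop-helix factor that marks quiescent stem cells and works as a dimer with E proteins. Its DMSO libraries held 10.3, 10.6 and 11.3 FPKM and its haloperidol libraries 6.05, 6.66 and 5.50 FPKM. The gap between the groups was larger than the range of either, and the log2 fold change of -0.73 (SE 0.08, adjusted p = 6.81e-04) was the largest after that of Hlf. Tcf15 is the shortest of the 8 in the authors' lengths, at 980 bases, so these levels rest on 90 to 100 reads per DMSO library and 48 to 58 per haloperidol library.

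Ndn encodes necdin, a MAGE family protein and no classical transcription factor, which is expressed from the paternal allele and restrains the cell cycle of stem cells. It was at 7.53, 6.62 and 7.79 FPKM in DMSO and 4.29, 4.70 and 5.98 FPKM in haloperidol. Haloperidol replicate 3 was the highest of its group and lay just under the lowest DMSO library. The log2 fold change was -0.48 (SE 0.12, adjusted p = 0.0186), from 61 to 116 reads per library. The call ended without DMSO replicate 1 (adjusted p = 0.0571) or 3 (0.064), without haloperidol replicate 1 (0.0594) or 2 (0.056), and with no filter (0.0626), while adjusted p ran from 0.00719 to 0.064 over its 14 alternatives.

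Mecom, also called Prdm3 and the source of the EVI1 protein, and Prdm16 are paralogous PRDM zinc finger genes needed by stem cells. Neither passed the test. Mecom was at 4.91, 4.98 and 4.45 FPKM in DMSO and 4.93, 4.51 and 4.13 FPKM in haloperidol, so haloperidol replicate 1 lay between DMSO replicates 1 and 2. Its log2 fold change was -0.07 with a 95% interval of -0.28 to 0.14 (adjusted p = 0.63). Prdm16 was at 1.99, 2.04 and 1.94 FPKM in DMSO and 2.24, 1.605 and 1.66 FPKM in haloperidol, where replicate 1 was the highest of all 6 libraries. Its log2 fold change was -0.08 with an interval of -0.37 to 0.20 (adjusted p = 0.673). Mecom had 389 to 463 reads per library and Prdm16 133 to 180, both above the 48 to 100 of Tcf15 and the 61 to 116 of Ndn. On the log2(FPKM + 1) scale, both intervals lie above the log2 fold changes of Hlf, Tcf15, Meis1, Fli1 and Ndn. That difference between genes was not tested, and this scale understates the change of low genes such as Prdm16. With a pseudocount of 0.1 the log2 fold change was -0.123 for Prdm16, -0.081 for Mecom, -0.517 for Fli1 and -0.553 for Ndn. No interval was computed at that pseudocount, so the separation of Prdm16 from Fli1 and Ndn is not known there. The log2 ratio of Mecom to Prdm16 was 0.95 ± 0.05 in DMSO and 0.97 ± 0.11 in haloperidol, a difference of 0.01 that changed sign with 1 library left out (-0.016 without DMSO replicate 3, -0.043 without haloperidol replicate 2) (exact permutation test, two-sided, p = 1, adjusted 1).

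**Figure D2:**
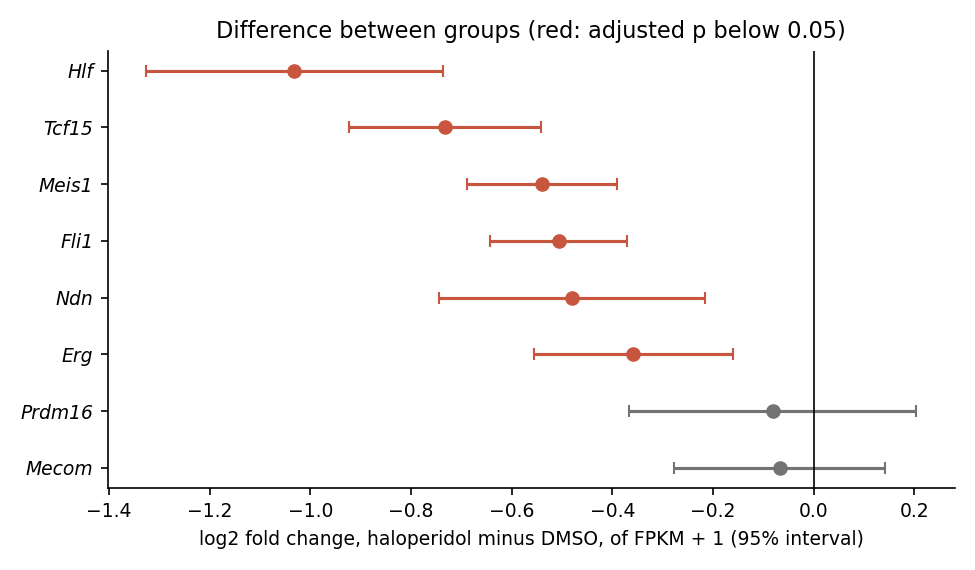
log2 fold change of FPKM + 1, haloperidol minus DMSO, with its 95% interval for each regulator (red: adjusted p below 0.05; grey: not past the threshold). The 6 red intervals lie below 0, from Hlf at -1.03 to Erg at -0.36, and the intervals of Mecom and Prdm16 span 0.

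The genes' order by mean FPKM, which depends on the authors' gene lengths, differed between the groups. By reads alone, Meis1 stood above Hlf in every library of both groups. In DMSO the order by FPKM was Fli1, Hlf, Meis1, Tcf15, Erg, Ndn, Mecom and Prdm16, and the libraries of neighbours overlapped only for Hlf and Meis1. In haloperidol Meis1 stood above Hlf without overlap, and Erg above Tcf15, with overlap between Erg and Tcf15, between Tcf15 and Ndn and between Ndn and Mecom. The ratio of Hlf to Meis1 was 1.28, 1.13 and 0.915 in DMSO and 0.811, 0.814 and 0.679 in haloperidol. Every haloperidol ratio was thus lower than every DMSO ratio, and the log2 ratio differed by -0.49 (exact permutation test, two-sided, p = 0.1, the smallest that 3 against 3 allows, adjusted 0.3). Within haloperidol, 5 of the 8 genes were lowest in replicate 3 (Hlf, Meis1, Fli1, Mecom and Tcf15), where Ndn was highest. Within DMSO, 4 were lowest in replicate 3 (Hlf, Erg, Mecom and Prdm16).

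**Figure D3:**
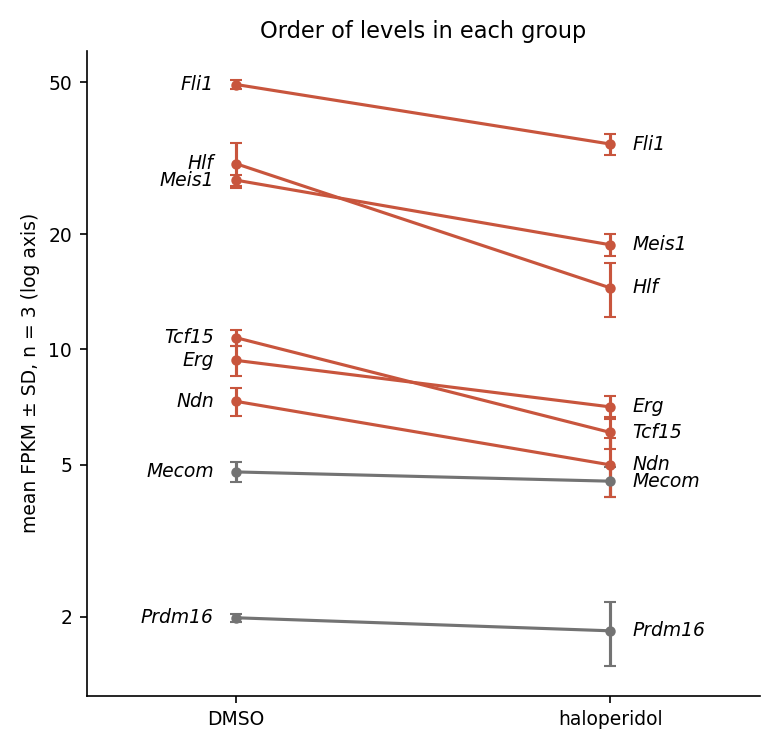
Mean FPKM ± SD (log axis, n = 3) of each regulator in DMSO and haloperidol, joined by a line (red: fell; grey: not past the threshold). The lines of Hlf and Meis1 cross, as do those of Tcf15 and Erg, while Mecom and Prdm16 run nearly level at the bottom.

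Partners and relatives of the 8 genes were taken as 9 lists of 121 genes, of which 76 were tested. Of these, 20 fell, 7 rose and 49 did not pass, against 13.0% lower and 11.5% higher over all genes, and their median log2 fold change was -0.08.

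The factors that bind with Fli1 and Erg in stem cells form a group called the heptad. With their cofactors 8 of 9 genes were tested, of which 3 fell and 1 rose, with a median log2 fold change of -0.26. Lmo2, the bridging LIM protein of the complex, fell from 490, 472 and 473 FPKM in DMSO to 332, 326 and 311 FPKM in haloperidol (log2 fold change -0.57, adjusted p = 1.42e-04). Gata2, the zinc finger factor of stem and progenitor cells, fell from 99.4 ± 5.49 to 73.2 ± 5.48 FPKM and Tal1, the basic helix-loop-helix member, from 7.55 ± 1.34 to 4.81 ± 0.248 FPKM (SD, n = 3 each). Lyl1 of the heptad was at 8.20 ± 1.32 and 6.55 ± 0.370 FPKM and did not pass (adjusted p = 0.0928). Runx1, also of the heptad, was at 19.8 ± 0.122 and 16.7 ± 2.54 FPKM and did not pass either (adjusted p = 0.102). Both were lower at an unadjusted p below 0.05. Cbfb, the binding partner of RUNX proteins, was at 113 ± 7.98 and 110 ± 3.38 FPKM and did not pass. Lmo4, a LIM-only relative of Lmo2, rose from 5.70 ± 1.29 to 8.46 ± 1.10 FPKM, a call lost under 5 of 14 alternatives, 4 of them with 1 library left out (adjusted p 0.00687 to 0.111 over all 14). These are without DMSO replicate 2 (0.0856) or 3 (0.0908), without haloperidol replicate 1 (0.111) or 3 (0.0787), and with no filter (0.109).

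Among the other TALE homeobox genes, relatives of Meis1, 7 of 10 were tested, of which 2 fell and 1 rose (median -0.08). The repressor genes Tgif1 and Tgif2 fell from 104 ± 3.74 to 74.3 ± 5.53 FPKM and from 11.7 ± 1.05 to 6.77 ± 0.290 FPKM. Pbx4, a potential partner of Meis1, rose from 7.71 ± 0.995 to 10.5 ± 0.919 FPKM, with the call lost under 5 of 14 alternatives (adjusted p 0.0129 to 0.0737), namely without DMSO replicate 1 (0.0667) or 2 (0.0722), without haloperidol replicate 1 (0.0737) or 3 (0.0506) and with no filter (0.0638). Of the PAR family and its antagonist, Dbp, the nearest relative of Hlf with a known daily rhythm, fell from 4.57 ± 0.315 to 2.58 ± 0.116 FPKM (log2 fold change -0.64, adjusted p = 0.00214). Tef, the other PAR gene, was at 4.58 ± 0.0266 and 5.51 ± 0.471 FPKM (adjusted p = 0.0926). Nfil3, a repressor at the same sites, was at 10.3 ± 0.855 and 13.1 ± 1.79 FPKM (adjusted p = 0.0551), and passed under 5 of 14 alternatives (adjusted p 0.0361 to 0.154), among them without haloperidol replicate 2 (0.0429). None of the 3 PAR list genes rose in the limma test on FPKM, while 2 were higher at an unadjusted p below 0.05 and 2 with voom.

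Of 21 other ETS genes 14 were tested, of which 3 fell and 0 rose, with a median of -0.01 (2 higher at an unadjusted p below 0.05, and 1 with voom). Spi1, which encodes the myeloid and lymphoid factor PU.1, fell from 144 ± 5.41 to 102 ± 7.48 FPKM, Elk3 from 19.1 ± 0.209 to 12.4 ± 0.309 FPKM and the repressor gene Etv3 from 8.29 ± 0.5995 to 5.91 ± 0.208 FPKM. Elf1, at 105 ± 5.62 and 103 ± 3.38 FPKM, did not pass. Of 16 other PRDM genes and corepressors 7 were tested and 0 passed with limma on FPKM (median 0.04). At an unadjusted p below 0.05, 2 were higher and 1 lower, voom called 1 in each direction, rescaling to a common upper quartile called 2 higher and rescaling to a common sum 1 lower. The corepressor gene Ctbp1, whose protein binds EVI1 and PRDM16, was at 112 ± 4.87 and 124 ± 2.62 FPKM (adjusted p = 0.0572) and Skil at 39.5 ± 0.229 and 36.9 ± 2.01 FPKM (adjusted p = 0.231).

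The dimer partners of Tcf15 and their inhibitors were measured as 7 genes, of which 6 were tested, 3 rose and 1 fell (median 0.32). The genes that rose encode ID proteins, which bind E proteins and keep them from DNA. Id1 rose from 44.8, 41.3 and 43.5 FPKM in DMSO to 69.1, 70.0 and 86.2 FPKM in haloperidol (log2 fold change 0.78, adjusted p = 5.85e-04). Id3 rose from 60.7 ± 3.38 to 90.4 ± 9.34 FPKM and Id2 from 10.4 ± 0.606 to 15.1 ± 1.98 FPKM. Haloperidol replicate 3 was the highest library for all of Id1, Id2 and Id3. Tcf15 was lowest there, but so were Hlf, Meis1, Fli1 and Mecom. That library also lay farthest out on the haloperidol side of the first principal component. The E protein gene Tcf4 fell from 15.3 ± 1.02 to 11.1 ± 0.781 FPKM and Tcf3, the most abundant E protein gene on the list, was at 61.8 ± 2.96 and 68.0 ± 0.749 FPKM (adjusted p = 0.0826). These calls for Id1, Id2, Id3 and Tcf4 were kept under all 14 alternatives each.

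In the MAGE family of Ndn 5 of 7 genes were tested, of which 3 fell and 0 rose (0 higher also at an unadjusted p below 0.05 and with voom), with a median of -0.40. Maged1 fell from 30.8 ± 1.70 to 23.2 ± 1.94 FPKM and Maged2 from 16.3 ± 0.964 to 11.7 ± 0.558 FPKM. Mageh1 fell from 3.85, 3.62 and 4.12 FPKM in DMSO to 1.91, 2.33 and 2.97 FPKM in haloperidol, with the call lost under 5 of 13 alternatives (adjusted p 0.0104 to 0.0661): without DMSO replicate 1 (0.0514) or 3 (0.066), without haloperidol replicate 1 (0.0566) or 2 (0.0533), and with no filter (0.0661). Like Ndn, Mageh1 was highest in replicate 3 of the haloperidol libraries. Magel2, the imprinted neighbour of Ndn, had no reads in any of the 6 libraries.

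Of 27 other imprinted genes 9 were tested, of which 3 fell and 1 rose (median -0.12). Cdkn1c, which encodes the cell cycle inhibitor p57 of quiescent stem cells, fell from 11.4 ± 0.514 to 8.21 ± 0.767 FPKM. Gatm, an enzyme gene of creatine synthesis, rose from 33.4 ± 2.52 to 44.6 ± 1.56 FPKM. Sgce (log2 fold change -0.30) lost its call under 5 of 14 alternatives (adjusted p 0.0174 to 0.11) and Phlda2 (-0.93) under 9 of 13 (0.02 to 0.152), each of them without 4 of the 6 libraries in turn. For Sgce these are DMSO replicates 2 (0.11) and 3 (0.0747) and haloperidol replicates 1 (0.0993) and 2 (0.0851), and for Phlda2 the 3 DMSO replicates (0.108, 0.0654 and 0.145) and haloperidol replicate 1 (0.0519). Ube3a, the most abundant after Gatm, was at 32.2 ± 0.204 and 29.9 ± 2.07 FPKM and did not pass.

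Of 21 other regulators of self-renewal 17 were tested, of which 4 fell and 1 rose (median -0.06). Nkx2-3, a homeobox gene of stem cells, fell from 118 ± 3.46 to 89.6 ± 4.35 FPKM and Mycn, a MYC family gene, from 5.85 ± 0.568 to 3.61 ± 0.388 FPKM. Foxo1, a forkhead factor, rose from 6.60 ± 0.619 to 9.44 ± 0.721 FPKM. Egr1, an immediate early gene, fell from 241 ± 10.3 to 180 ± 38.0 FPKM (adjusted p = 0.036), a call lost under 7 of 14 alternatives (adjusted p 0.00187 to 0.119) and without any library but haloperidol replicate 1, with values from 0.0723 to 0.0996.

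**Figure D4:**
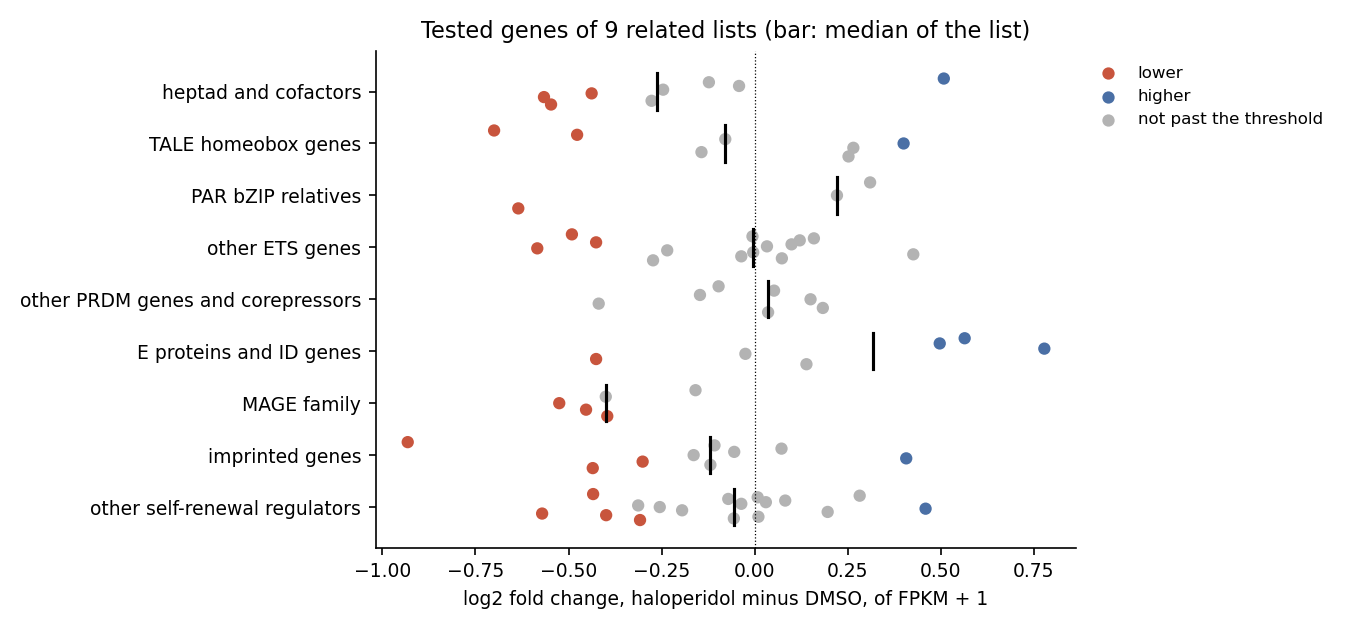
log2 fold change of FPKM + 1, haloperidol minus DMSO, for each tested gene (points) of the 9 lists of partners and relatives, with the list's median as a bar (red: lower; blue: higher; grey: not past the threshold). The 3 blue points of E proteins and ID genes are Id1, Id2 and Id3, and all 5 tested MAGE genes lie below 0.

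Genes whose pattern over the 6 libraries lay nearest to that of each fallen regulator were found by the root mean square difference of log2(FPKM + 1) profiles, each centred on its own mean. For Hlf these were Tbxa2r, the thromboxane A2 receptor gene (0.075), and the immediate early gene Egr3 (0.099). Tbxa2r went from 19.05 ± 2.78 to 8.62 ± 1.77 FPKM. For Meis1 they were Wdyhv1 (0.033) and the squalene epoxidase gene Sqle (0.036), for Fli1 Tifa (0.035) and Fam64a (0.038), and for Erg Slc25a38 (0.034) and Rad9a (0.039). For Tcf15 they were the carbonyl reductase gene Cbr1 (0.033) and the coactivator gene Ncoa3 (0.053), and for Ndn they were Coa3 (0.039) and its relative Mageh1 (0.044). No other of the 8 regulators was among these 12.

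Markers of the cells in which these regulators are also known were read in the same libraries. Of 17 endothelial markers 6 were tested and 3 fell, and their summed level was 110 to 122 FPKM in DMSO and 98.6 to 101 FPKM in haloperidol. Cdh5 and Kdr were too low to be tested, with means of 0.00 and 0.0285 FPKM for Cdh5 and 0.222 and 0.0257 FPKM for Kdr. The groups did not overlap for Kdr, with 12 to 17 reads in DMSO and 0 to 3 in haloperidol. Lyve1 was at 0 in all libraries. Egfl7, the most abundant on the list, was at 57.8 ± 3.33 and 54.75 ± 1.46 FPKM. Pecam1 was at 11.2 ± 0.630 and 11.4 ± 0.560 FPKM, and neither passed. The 3 that fell were Tie1 (14.5 ± 1.07 to 10.1 ± 0.786 FPKM), Eng and Emcn, which stem cells express as well. Of 13 megakaryocyte and platelet markers 10 were tested, Itga2b and Itgb3 rose, and the sums overlapped at 229 to 239 and 229 to 254 FPKM, with none at 0 in all libraries. Of 10 stem cell surface markers 9 were tested, with a median log2 fold change of -0.34. Esam, Procr and Cd34 were among those that fell. The 5 that did not pass were Slamf1 (log2 fold change -0.40), Fgd5 (-0.38), Robo4 (-0.34), Tek (-0.03) and Ctnnal1 (0.09). The sums over all 10 did not overlap, at 850.1 to 894 and 727 to 749 FPKM, but Cd34 alone, at 648 ± 24.7 and 557 ± 19.4 FPKM, made up most of them. Of 13 stromal and osteolineage markers 5 were tested and 1 rose, with Bglap at 0 in all libraries and overlapping sums of 35.8 to 44.6 and 43.8 to 47.0 FPKM. Of 9 B cell markers 5 were tested and 4 fell, with sums of 281 to 362 and 170 to 269 FPKM. The sums of mature erythroid, T and NK cell, neutrophil, and monocyte, macrophage and dendritic markers overlapped between the groups, with 1 of 9 lower, 1 of 3 lower, 1 of 10 higher, and 1 higher and 1 lower of 6 tested. The part of these cells in the falls was not tested.

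**Figure D5:**
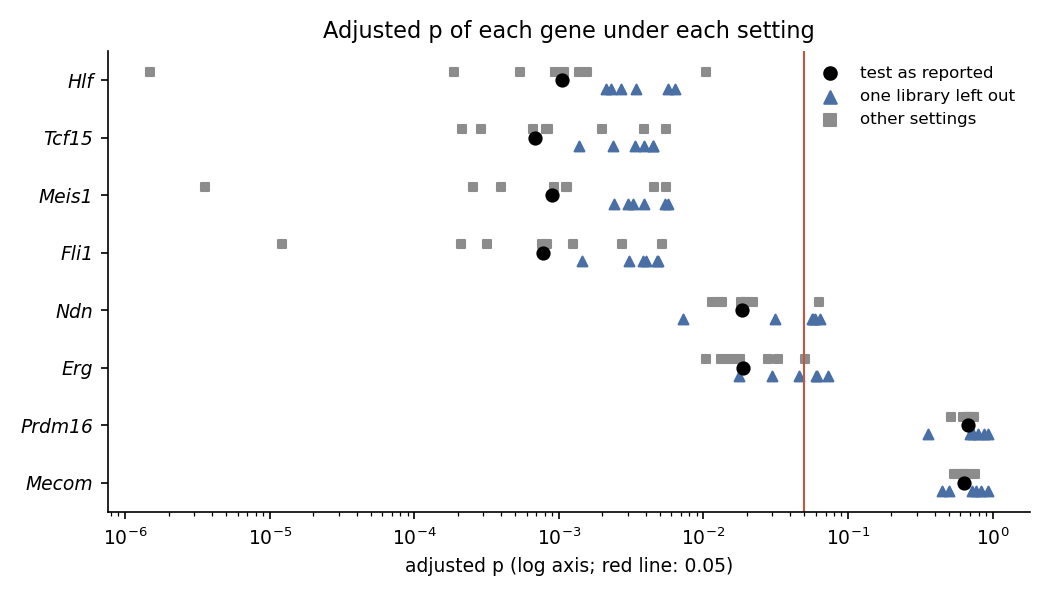
Adjusted p (log axis) of each regulator in the test as reported (black circles), with 1 library left out (blue triangles) and under the other settings (grey squares), with the threshold of 0.05 as a red line. Hlf, Tcf15, Meis1 and Fli1 stay left of the line in all settings, Ndn and Erg straddle it, and Prdm16 and Mecom stay right of it.

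Across 14 alternatives each, Hlf, Tcf15, Meis1 and Fli1 kept their calls, with adjusted p at most 0.0105, 0.00551, 0.00572 and 0.0052. In the build used for the reads, mm10, which is GRCm38, Hlf lies on chromosome 11 from 90336536 to 90390895, Meis1 on chromosome 11 from 18879817 to 19018985, Fli1 on chromosome 9 from 32422204 to 32542861 and Erg on chromosome 16 from 95359169 to 95586593, as GENCODE M21 gives them. Tcf15 lies on chromosome 2 from 152143561 to 152149097, Ndn on chromosome 7 from 62346569 to 62350262, Mecom on chromosome 3 from 29951296 to 30548008 and Prdm16 on chromosome 4 from 154316125 to 154636873. Exons of other genes overlap those of Meis1, Mecom and Prdm16 in that annotation and those of no other of the 8.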

How the data were processed

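The authors deposited 1 table of FPKM values for 38926 genes in 6 columns, each of 1 library of the series. Per the labels' protocols, cells were sorted into lysis buffer and cDNA made with a SMART-Seq low input kit and a Nextera XT kit, which keep no strand. Tools named in the submitters' processing notes are DESeq2 1.18.1, HTSeq 0.6.1, TopHat2 2.1.1 and bcl2fastq 2.19.1.403, with the build mm10. The annotation is not given in the sources used here.

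Genes with a mean of at least 1 FPKM entered limma 3.58.1 (R 4.3.3) as log2(FPKM + 1) values (trend, no covariate, two-sided, Benjamini-Hochberg over 11436 genes, threshold 0.05). Fold changes on this scale understate the change of low genes. Whole reads were recovered from the steps between FPKM values, within 0.001 reads for 100.0% of genes above 0, and served for depth and a voom test added after seeing the data. The test was tried on simulated data. Replicates of a group differed by more than sampling noise (chi-square per degree of freedom 2.8 to 4.48).

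The 8 genes, the 9 related lists and the 10 marker lists were chosen from general knowledge with earlier results of these data known. The result of 1 marker gene is not reported here. Named are all 8 regulators. From each related list they are the up to 4 called genes of smallest p and the 2 of highest DMSO mean, and for each fallen regulator the 2 nearest genes, predicted genes left out. Lyl1 and Runx1 were named besides, as the heptad members that did not pass, and so were single marker genes. Alternatives were a pseudocount of 0.1, no filter or one at 5 FPKM, other scalings, a robust prior, a replicate block and each library left out.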

Additional observations from a re-analysis of the deposited data

How the results depend on the processing

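Of 110 alternative values for the 8 regulators, 101 kept their direction and side of the threshold, 9 lost the call (4 for Erg and 5 for Ndn) and 0 reversed. The count of fallen regulators was 6 as reported and 4 to 6 with 1 library left out, and 4 with no filter on low values. Over all genes, 2807 passed as reported, 1814 to 2160 with 1 library left out (lowest without DMSO replicate 2), and 3321 with voom. The number higher was 1320 as reported, 848 with no filter and 817 to 985 with 1 library left out (817 without DMSO replicate 2, 864 without haloperidol replicate 1). The share of higher against lower calls turned with a common upper quartile (1551 and 1327) but not with a common sum (1114 and 1565). Related genes that rose numbered 7 as reported, 11 with a common upper quartile and 13 with voom. With 1 library left out, the log2 ratio of Mecom to Prdm16 differed by -0.043 to 0.061, Cbfb by -0.099 to 0.001 and Elf1 by -0.063 to 0.007 on the log2 scale. The cause was not tested. Replicate numbers are shared by the groups, and the labels do not say whether same-numbered libraries belong together. Their deviations from the group means correlated at only 0.00946, 0.055 and 0.0195. With 3 libraries per group, these values cannot tell whether such libraries share more than a number. With a replicate block 2552 genes passed, 6 regulators fell, and among named genes the call of Phlda2 was lost (adjusted p = 0.0739). Tcf15, Ndn and Prdm16 had the fewest reads of the 8 and so the largest counting error. Their SEs were 0.084, 0.116 and 0.125, while Hlf, with many more reads, had the largest SE at 0.129.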
